A study of Mus musculus with 6 samples.

Results

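Immunoglobulin heavy chain variable segments (Ighv) were measured in RNA from splenic cells labelled as primary CD8+ T cells. The members are all rows of the deposited table whose Ensembl identifier maps to a mouse symbol that starts with Ighv, 108 of its 19323 rows, and 185 genes of that name stand in the GENCODE M21 annotation of mm10. The wild-type (WT) C57BL/6 mice were 6 weeks old when they were put on either of 2 diets, labelled ND and MCDHFD, for 7 weeks, and the labels speak of MASH models, MASH being fatty liver disease with inflammation. Each diet had 3 libraries, made from total RNA with either a whole-RNA or an mRNA kit, and the labels do not tie kits to libraries. The labels do not spell out the diets, do not give the sex of the mice and do not say whether replicates are different mice, so a p-value here speaks of the spread among these libraries alone, which may be technical.

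A B cell makes its heavy chain gene by joining 1 variable, 1 diversity and 1 joining segment (V, D and J), in a reaction cut by the RAG proteins at signal sequences beside each segment. The promoter of the joined V segment then drives transcription through to the constant region genes, such as Ighm for IgM and the Ighg genes for IgG, so each B cell clone transcribes mainly the V segment it chose. Plasma cells, which secrete antibody, carry far more of this RNA than resting B cells. CD8 T cells rearrange T cell receptor genes instead, so rearranged heavy chain genes are a mark of the B lineage. The spleen is rich in B cells and plasma cells.

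The deposited normalized counts, read counts divided by 1 factor per library, summed to 14119816 to 14752121 per library. The label's cell type was present: Cd8a stood at 13784 ± 350.4 in ND and 5264 ± 458 in MCDHFD normalized counts (SD, n = 3), and all 15 genes of a CD8 T cell list fell (median log2 fold change -1.04). B cell markers were measured too. Ms4a1, which encodes CD20, stood at 809.7 ± 200.4 in ND and 124 ± 14.1 in MCDHFD normalized counts (SD, n = 3). In bulk RNA, more cells of a type and more RNA per cell cannot be told apart. Across the table limma, run on log2 values, called 30.3% of tested genes higher and 28.1% lower in MCDHFD (4065 and 3772 of 13430). With libraries rescaled to hold the CD8 T cell list equal, tested genes had a median log2 fold change of 1.08. Of the 13430 tested genes, 11404 were then called higher and 404 lower.

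The sequences below are the last 300 bases of the coding sequences of segments on which the results turn, from GENCODE M21 on mm10, where every measured member lies on the minus strand of chromosome 12. They are shown because V segments resemble each other, which limits how well reads can be assigned to single members. Ighv1-26 (chr12:114788372-114788805) had the highest mean of all members, and Ighv1-18 (chr12:114682632-114683065) was its closest measured relative, with capitals at the 8 positions where they differ in this stretch (11 in the whole coding sequence).
Ighv1-26: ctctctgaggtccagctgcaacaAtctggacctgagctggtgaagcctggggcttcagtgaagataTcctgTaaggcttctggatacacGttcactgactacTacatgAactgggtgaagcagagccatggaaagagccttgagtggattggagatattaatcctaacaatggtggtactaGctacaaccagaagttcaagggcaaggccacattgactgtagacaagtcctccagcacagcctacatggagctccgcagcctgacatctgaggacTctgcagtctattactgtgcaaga
Ighv1-18: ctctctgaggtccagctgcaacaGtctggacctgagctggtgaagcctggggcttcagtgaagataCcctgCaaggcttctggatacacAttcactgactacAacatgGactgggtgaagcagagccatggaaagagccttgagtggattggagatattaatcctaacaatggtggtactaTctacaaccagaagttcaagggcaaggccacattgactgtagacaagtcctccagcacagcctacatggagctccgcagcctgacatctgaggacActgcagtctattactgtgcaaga
Ighv14-4 (chr12:114176438-114176867) and Ighv14-1 (chr12:113931953-113932382) differ at 8 positions of the stretch, in capitals (9 in all), and only the former passed the test between the diets.
Ighv14-4: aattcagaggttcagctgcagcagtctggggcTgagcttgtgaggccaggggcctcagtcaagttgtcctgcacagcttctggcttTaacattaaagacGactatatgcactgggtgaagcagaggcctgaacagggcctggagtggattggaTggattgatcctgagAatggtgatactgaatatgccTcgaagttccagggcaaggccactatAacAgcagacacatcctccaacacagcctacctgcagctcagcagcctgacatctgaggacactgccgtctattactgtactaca
Ighv14-1: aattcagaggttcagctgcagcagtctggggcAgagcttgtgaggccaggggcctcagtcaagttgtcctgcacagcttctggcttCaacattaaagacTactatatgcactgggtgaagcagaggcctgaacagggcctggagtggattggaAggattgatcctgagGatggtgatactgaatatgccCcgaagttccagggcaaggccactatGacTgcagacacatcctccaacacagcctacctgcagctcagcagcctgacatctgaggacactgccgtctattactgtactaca
Ighv3-6 (chr12:114288152-114288582) led in some MCDHFD libraries, and Ighv7-1 (chr12:113896408-113896946) and Ighv5-6 (chr12:113625506-113625956) had some of the highest fold changes. Capitals mark TGTGCAAGA, the end of the V segment that encodes its conserved cysteine and is joined to the D segment. A search of the coding strand found these letters within 10 bases of the 3′ end in 58 of the 98 members annotated as functional.
Ighv3-6: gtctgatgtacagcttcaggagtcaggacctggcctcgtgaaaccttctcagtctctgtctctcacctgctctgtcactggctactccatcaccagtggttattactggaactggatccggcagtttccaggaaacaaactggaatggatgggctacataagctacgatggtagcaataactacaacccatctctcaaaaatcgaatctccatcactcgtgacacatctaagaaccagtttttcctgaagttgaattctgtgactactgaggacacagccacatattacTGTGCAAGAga
Ighv7-1: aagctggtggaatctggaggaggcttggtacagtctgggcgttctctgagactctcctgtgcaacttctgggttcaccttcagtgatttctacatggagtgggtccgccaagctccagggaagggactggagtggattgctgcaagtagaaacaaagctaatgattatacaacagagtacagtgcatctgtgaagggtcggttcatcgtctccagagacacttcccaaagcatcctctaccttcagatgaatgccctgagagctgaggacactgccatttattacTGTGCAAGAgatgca
Ighv5-6: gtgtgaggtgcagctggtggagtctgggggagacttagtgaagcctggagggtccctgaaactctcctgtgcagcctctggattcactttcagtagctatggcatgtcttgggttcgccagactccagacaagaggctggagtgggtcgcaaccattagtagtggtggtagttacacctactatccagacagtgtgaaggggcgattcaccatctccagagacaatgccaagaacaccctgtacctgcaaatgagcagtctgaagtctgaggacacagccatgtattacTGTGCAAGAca

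Members of 1 family, the number after Ighv, shared a median of 84.6% of bases, against 58.4% between families, over all pairs of the 98 functional members. Of these, 43 had another measured member at 95% identity or more, 6 at 98% or more and 2, Ighv1-71 and Ighv1-62-2, at 99% or more. Values of such members are uncertain singly, since the way the authors assigned reads that match several genes is not stated in the labels. Sums over families do not depend on how reads were divided within a family. They would still lack any reads that were dropped because they match several genes.

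The summed level of the 108 Ighv rows was about 4 times as high in MCDHFD as in ND. It was 2094, 2306 and 1902 normalized counts in ND replicates 1 to 3 and 7015, 9022 and 9161 in MCDHFD replicates 1 to 3. All MCDHFD libraries lay above all ND libraries, and MCDHFD replicate 1 was the lowest of its diet. The means were 2101 ± 202 in ND and 8399.5 ± 1201 in MCDHFD (SD, n = 3), a ratio of 4.0. As a share of all normalized counts the Ighv sum went from 0.0148% ± 0.00143 to 0.0574% ± 0.00797 (SD, n = 3). No test was run on sums over the members, since the members were chosen with results of these data known.

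The kappa light chain V segments (Igkv, 102 rows), which pair with heavy chains in antibodies, were higher as well, with sums of 2319, 2315 and 2097 in ND and 6343, 8949.5 and 8497 in MCDHFD. By limma 61 of 71 tested Igkv segments rose, against 30.3% of all tested genes. Per 100 Igkv counts there were 90.3, 99.6 and 90.7 Ighv counts in ND and 111, 101 and 108 in MCDHFD, a ratio of 1.14 between the means. The 8 heavy chain constant region genes summed to 15231 to 16178 in ND and 27935 to 36372 in MCDHFD, a ratio of 2.08. Per 100 constant region counts there were 12.9, 14.6 and 12.5 Ighv counts in ND and 25.1, 26.6 and 25.2 in MCDHFD, with no overlap between the diets. Ighm made up most of the constant region sum in ND and rose from 12576 ± 239.6 to 16685 ± 1225 (SD, n = 3, log2 fold change 0.41 with SE 0.06, limma adjusted p = 5.54e-04).

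The class-switched constant genes (Ighg, Igha and Ighe) together stood at 2170.3, 1749 and 1849.9 in ND and 12089, 17037 and 18089 in MCDHFD, a ratio of 8.18. Ighg2b (log2 fold change 4.19 with SE 0.14, limma adjusted p = 1.36e-07), Ighg2c (4.2), Ighg1 (6.01, and 5.22 without ND replicate 3), Ighg3 (3.20) and Igha (1.64) rose by limma, while Ighd, expressed with Ighm on naive B cells, fell (-1.98). Every ND library had 0 for Ighe, and the MCDHFD libraries 51.8, 108 and 129.7.

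Genes of B cell identity were lower in MCDHFD. Of 16 listed B cell genes, 15 fell by limma, against 28.1% of all tested genes. The list had a median log2 fold change of -1.89, against 0.00377 over all tested genes. With the CD8 T cell list held equal, 11 fell and Bank1 rose, where most of all tested genes were called higher. Cd79a, a signalling chain of the B cell receptor, fell from 1152 ± 129 to 305 ± 25.2 (SD, n = 3, log2 fold change -1.91 with SE 0.10, limma adjusted p = 7.85e-07). Pax5, the factor that holds B cell identity, fell as well (-2.67 with SE 0.63), at 1233, 1078 and 972 in ND and 47.1, 325 and 319 in MCDHFD. Without MCDHFD replicate 1, its lowest library, its log2 fold change was -1.75. Bank1, a B cell adaptor that was the exception, had a log2 fold change of 0.05 (limma adjusted p = 0.630). Without Ighd the list summed to 9139 to 11308 in ND and 2991 to 3522 in MCDHFD. Per count of that list there were 0.185, 0.238 and 0.208 Ighv counts in ND and 2.35, 2.56 and 2.70 in MCDHFD, a ratio of 12.1 between the means.

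The plasma cell list was mixed, with calls near the shares over all tested genes. Of its 13 tested genes 4 rose, 3 fell and 6 did not pass by limma (2 rose without ND replicate 3). Of all tested genes 30.3% rose and 28.1% fell. With the CD8 T cell list held equal 9 rose and 2 fell, where most of all tested genes were called higher (median log2 fold change 1.08). The sum of the plasma cell list overlapped between the diets, at 10172 to 10661 in ND and 9568 to 11739 in MCDHFD. Xbp1, which drives the secretory programme (0.65), Prdm1, the gene of the plasma cell factor Blimp-1 (1.49), the disulfide isomerase gene Txndc5 (0.69) and Jchain, which joins IgM and IgA into polymers (0.83), rose. The call of Txndc5 was lost by edgeR and DESeq2 and without any of 4 libraries (ND replicates 1 and 3, MCDHFD replicates 2 and 3), and that of Jchain by DESeq2 and without ND replicate 1 or 3. Jchain was at 609, 654 and 588 in ND and 749, 1744 and 1010.0 in MCDHFD, so MCDHFD replicate 1 lay just above the ND libraries. Irf4 (-1.67), Slamf7 (-2.21) and Tnfrsf13b (-1.57) fell. Irf4 and Slamf7 are also expressed by T cells, and Tnfrsf13b is mainly a receptor of B lineage cells. From which cells the listed genes that rose or fell came was not tested. Tnfrsf17, which encodes the plasma cell receptor BCMA, was near 0 in both diets, at 2.94, 1.95 and 0 in ND and 0, 0 and 2.24 in MCDHFD. The surface proteoglycan gene Sdc1, a defining plasma cell marker, was at 27.4, 6.81 and 15.8 in ND and 23.5, 25.6 and 28.0 in MCDHFD and passed only without ND replicate 1 (1.22) or with the CD8 T cell list held equal. How much of the Ighv rise goes with these markers was not tested.

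Other markers moved in the same libraries. The CD8 T cell list summed to 89521 to 91971 in ND and 40878 to 46526 in MCDHFD. By limma all 14 macrophage, all 9 erythroid and all 8 neutrophil genes rose, against 30.3% of all tested genes. The macrophage list summed to 50700.3 to 61365 in ND and 259522 to 317729 in MCDHFD, the erythroid list to 3554 to 3670.4 and 14821 to 22907, and the neutrophil list to 768 to 1556 and 8813 to 15613. Their part in the Ighv result was not tested.

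**Figure D1:**
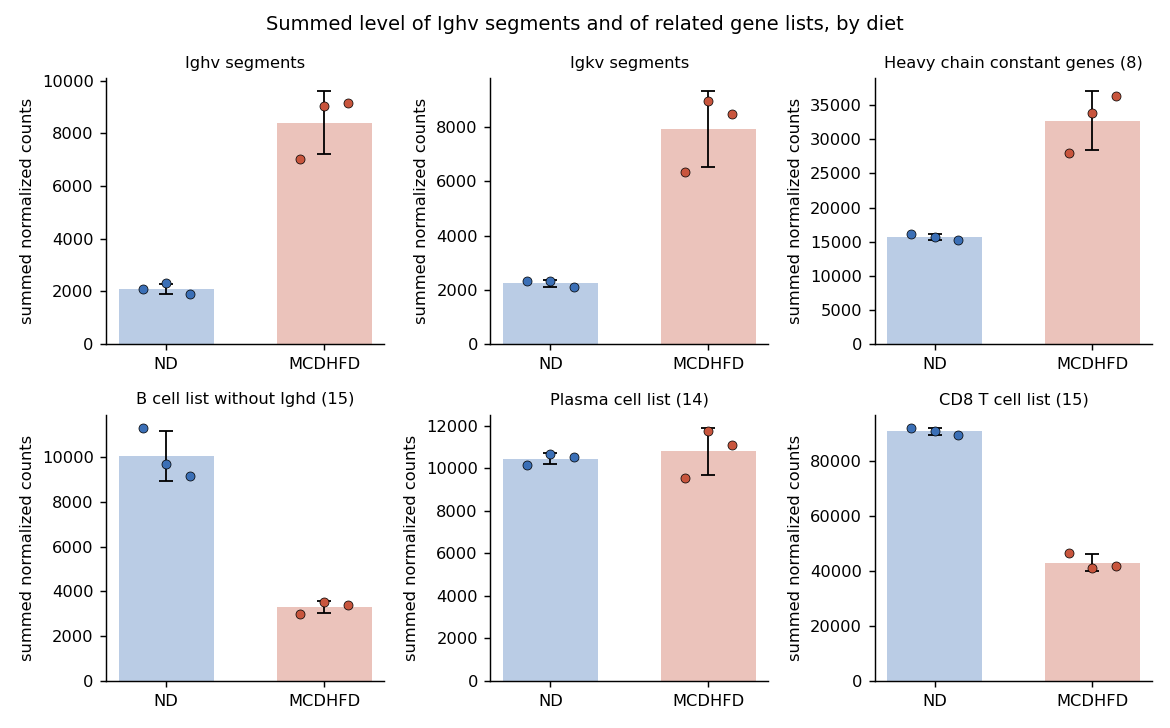
Summed normalized counts (vertical axis, from 0) of Ighv and Igkv segments, heavy chain constant genes and 3 marker lists in ND and MCDHFD. Points are libraries, bars are means and whiskers are SD (n = 3). The Ighv points lie at 1902 to 2306 in ND and 7015 to 9161 in MCDHFD, while the B cell list lies lower in MCDHFD.

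The rise was spread over nearly all tested segments. Of the 108 members, 77 reached a mean of 10 normalized counts over the 6 libraries and were tested. By limma 72 of these rose and none fell at an adjusted p under 0.05, where 30.3% of all tested genes rose and 28.1% fell. At an unadjusted p under 0.05, 74 were higher and none lower by limma. At an adjusted p under 0.05 on recovered reads, edgeR and DESeq2 also called none lower. They called 70 and 71 higher, against 27.5% and 26.4% of all tested genes. A rise of at least 2-fold was called in 71 (13.1% of all tested genes), and one of at least 4-fold in 37 (5.32%). The log2 fold changes ran from 0.14 to 3.58 with a median of 1.96. Ighv14-1, the lowest, was fitted below 0 by edgeR and DESeq2, under quantile scaling, without ND replicate 2 and without MCDHFD replicate 1. Over all 108 members the MCDHFD mean was below the ND mean in 12, all of them untested. In 73 of the 77 all MCDHFD libraries exceeded all ND libraries, against 33.2% of all tested genes. Members pass the filter more easily where they are high, so these counts describe the 77 and not all 108.

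**Figure D2:**
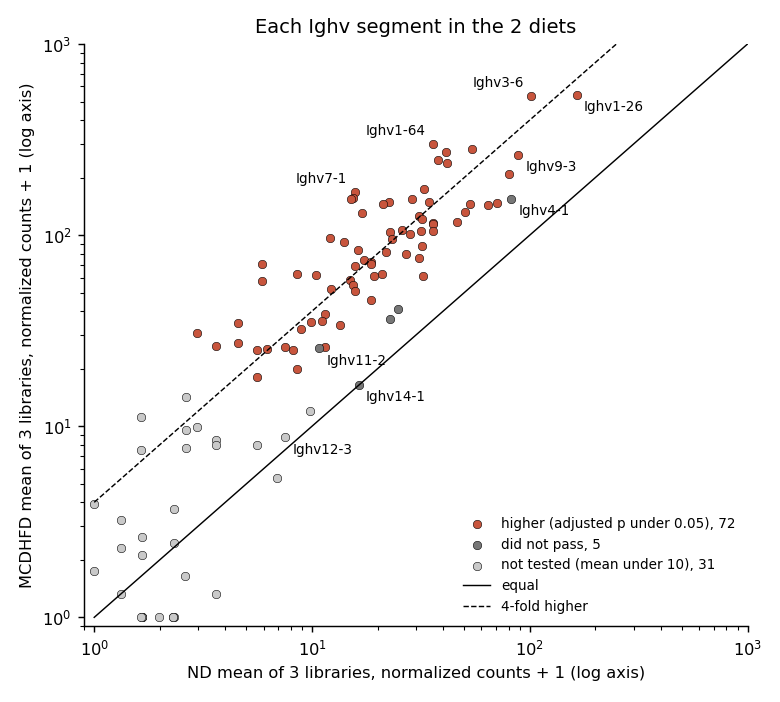
Mean normalized counts plus 1 of each of the 108 Ighv segments in ND (horizontal, log axis) and MCDHFD (vertical, log axis), 3 libraries each. Colours show the limma call, the solid line equal levels and the dashed line a 4-fold rise. The 72 called segments lie around the dashed line over the whole range of levels, and Ighv14-1 lies on the line of equal levels.

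Ighv1-26 and Ighv3-6 were the most abundant segments, also per length of exon (999.5 and 906 normalized counts per kilobase, against 496 for the next, Ighv9-3). Annotated exon lengths ran from 295 to 480 bases. Ighv1-26, of the large family 1, was at 158, 192 and 141 normalized counts in ND replicates 1 to 3 and 362, 623 and 629.7 in MCDHFD replicates 1 to 3. MCDHFD replicate 1 was lower than the other MCDHFD libraries but above all of ND (log2 fold change 1.68 with SE 0.21, limma adjusted p = 1.70e-04). Its near relative Ighv1-18 rose by a similar factor (log2 fold change 1.75 with SE 0.26, limma adjusted p = 4.30e-04).

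Ighv3-6, of the small family 3, was at 94.0, 117 and 91.1 in ND and 475, 454 and 672 in MCDHFD, with no overlap (log2 fold change 2.38 with SE 0.17, limma adjusted p = 4.45e-06). Ighv9-3 (chr12:114140692-114141122) was uneven in ND, at 146, 71.0 and 45.5 in ND and 304, 239 and 239 in MCDHFD, and ND replicate 1 carried more than either other ND library (log2 fold change 1.72 with SE 0.35, limma adjusted p = 0.00282). Ighv1-81 (chr12:115920279-115920712) was at 61.7, 55.4 and 42.6 in ND and 216, 323 and 305 in MCDHFD (log2 fold change 2.38 with SE 0.20, limma adjusted p = 1.35e-05). These segments passed whichever library was left out.

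Ighv1-64 (chr12:115507545-115508031) had a higher fold change than the members above it in level, and rose from 35 ± 5.19 to 298 ± 28.3 normalized counts (SD, n = 3, log2 fold change 3.06 with SE 0.16, limma adjusted p = 7.60e-07). Its closest relative, Ighv1-72 (chr12:115757984-115758461), with 16 differing positions, also rose (2.71), as did Ighv1-53 (1.41). Ighv1-9 (chr12:114583569-114584002, log2 fold change 2.53) and Ighv5-17 (chr12:113859149-113859670, 2.66), the most abundant member of family 5, complete the abundant segments that rose.

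Of the 40 tested segments whose mean reached 50, those of the 5 highest fold changes were Ighv7-1, Ighv14-4, Ighv5-6, Ighv1-64 and Ighv2-9-1, which come from 5 families. Ighv7-1 was at 11.7, 20.4 and 11.9 in ND and 140.2, 159 and 201 in MCDHFD (log2 fold change 3.45 with SE 0.26, limma adjusted p = 6.80e-06). Ighv5-6 was at 10.8, 13.6 and 18.8 in ND and 172, 143 and 153 in MCDHFD (log2 fold change 3.38 with SE 0.23, limma adjusted p = 3.89e-06). In both, the lowest MCDHFD library lay far above the highest ND library. Without that limit on level, the highest fold changes were those of Ighv1-34, at 4.89, 3.89 and 5.94 in ND and 64.0, 67.8 and 76.1 in MCDHFD (3.58), and Ighv1-31, at 2.94, 2.92 and 0 in ND and 16.0, 40.3 and 32.4 in MCDHFD (3.52). The value of Ighv1-31 was 2.87 without ND replicate 3, where it was at 0. Ighv2-9-1 (chr12:113769850-113770302) was at 15.7, 9.73 and 7.92 in ND and 55.5, 117 and 115 in MCDHFD (log2 fold change 2.97 with SE 0.36, limma adjusted p = 1.28e-04).

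The 5 lowest fold changes at that level were those of Ighv1-55, Ighv4-1, Ighv7-3, Ighv5-16 and Ighv1-19, and all but Ighv4-1 still rose by limma. Ighv1-55 (chr12:115208095-115208591) was at 69.5, 60.3 and 80.2 in ND and 112, 178 and 151 in MCDHFD (log2 fold change 1.04 with SE 0.20, limma adjusted p = 0.00177). Ighv7-3 (chr12:114153180-114153644) rose by 1.20, Ighv5-16 (chr12:113838526-113839010) by 1.23 and Ighv1-19 (chr12:114708648-114709135) by 1.35 on the log2 scale. Ighv4-1 (chr12:113948282-113948796), the only measured member of family 4, was at 25.5, 134 and 84.1 in ND and 154, 149 and 158 in MCDHFD. Its ND libraries spread widely while the MCDHFD libraries lay close together above them (log2 fold change 1.20 with SE 0.49, limma adjusted p = 0.0632). Without ND replicate 1 its log2 fold change was 0.53 (limma adjusted p = 0.0612), and without ND replicate 2 it passed (1.71, limma adjusted p = 0.00967).

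Apart from Ighv4-1, the tested segments that did not pass were Ighv11-2, Ighv2-5, Ighv5-12 and Ighv14-1. Ighv14-1 was at 27.4, 3.89 and 14.8 normalized counts in ND replicates 1 to 3 and 27.3, 6.88 and 12.3 in MCDHFD replicates 1 to 3. The diets overlapped fully, and replicate 1 was the highest of each diet (log2 fold change 0.14 with SE 0.69, limma adjusted p = 0.873). Ighv14-4, which differs from it at 9 positions, was at 23.5, 7.78 and 10.9 in ND and 80.0, 193 and 188 in MCDHFD (log2 fold change 3.39 with SE 0.45, limma adjusted p = 2.08e-04), and Ighv14-2 (2.04) and Ighv14-3 (1.24) rose too. The difference between these segments was not tested, and reads shared between such close copies make the single values uncertain. Ighv2-5 and Ighv5-12 passed in some alternatives, Ighv2-5 without ND replicate 2 and Ighv5-12 without MCDHFD replicate 1. Ighv2-5 was at 12.7, 35 and 23.8 in ND and 30.1, 44.2 and 45.9 in MCDHFD (log2 fold change 0.81 with SE 0.37, limma adjusted p = 0.0889) and Ighv5-12 at 14.7, 34.0 and 16.8 in ND and 16.9, 46.2 and 43.6 in MCDHFD (log2 fold change 0.65 with SE 0.45, limma adjusted p = 0.247).

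Families 11 and 12 are known for B-1a cells, a self-renewing B cell population whose antibodies often bind phosphatidylcholine, and each had 1 measured member. Ighv11-2 (chr12:114048241-114048812) was at 1.96, 14.6 and 12.9 in ND and 21.6, 19.7 and 32.4 in MCDHFD. ND replicate 1 was far below the other ND libraries, and all MCDHFD libraries were above them (log2 fold change 1.54 with SE 0.62, limma adjusted p = 0.0585). Its log2 fold change was 0.77 without ND replicate 1 (limma adjusted p = 0.0954), and it passed without ND replicate 2 (1.97, limma adjusted p = 0.0326) or ND replicate 3 (1.88, limma adjusted p = 0.0483). Ighv12-3 (chr12:114366521-114366954) was at 9.79, 6.81 and 2.97 in ND and 10.4, 3.93 and 8.95 in MCDHFD, with overlapping diets, and was too low to be tested. Of 10 genes listed for B-1 and marginal zone B cells 5 rose and 3 fell by limma, against 30.3% and 28.1% of all tested genes. With the CD8 T cell list held equal 8 rose and 1 fell, where most of all tested genes were called higher (median log2 fold change 1.08). At the deposited scaling Bhlhe41, a factor of B-1a cells (1.18), and the scramblase gene Plscr1 (1.87) were among those that rose. Zbtb32 (-2.71) and Dtx1 (-1.21) fell there, Dtx1 not with the CD8 T cell list held equal. Several of these genes are expressed by other cells as well.

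Low segments make up the remaining 31 members, with means from 0.324 to 9.91 normalized counts. Just below the filter lay Ighv13-2 (mean 9.91), Ighv1-49 (7.46) and Ighv12-3 (7.13), and just above it Ighv9-4 (10.9), Ighv5-9 (13.3) and Ighv1-36 (14). Ighv13-2, the only member of its family, was at 12.7, 12.6 and 0.990 in ND and 5.65, 11.8 and 15.7 in MCDHFD. Ighv15-2, likewise alone in its family, was at 0, 1.95 and 0 in ND and 3.76, 9.83 and 16.8 in MCDHFD. All 10 members annotated as pseudogenes were among the untested, and none exceeded 7.83 normalized counts in any library. Of all 108 members, 78 were above 0 in every library, 2 (Ighv1-41 and Ighv5-21) were at 0 in all ND libraries and 8 at 0 in all MCDHFD libraries.

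Usage, the share of each segment in the Ighv sum of its library, was spread over many segments in both diets. The effective number of segments, the exponential of the Shannon entropy of the shares, counts how many equally used segments would give the same spread. It was 57.3, 54.9 and 57.1 in ND and 57.5, 59.9 and 57.3 in MCDHFD. The lowest MCDHFD value lay just above the highest ND value in these uncorrected numbers, and the means, 56.4 ± 1.31 in ND and 58.2 ± 1.43 in MCDHFD (SD, n = 3), differed by 1.79 segments. With a Miller-Madow correction for read number, the recovered reads gave 58.5 and 56.1 in ND replicates 1 and 2 and 57.8, 60.2 and 57.7 in MCDHFD replicates 1 to 3, and the diets overlapped. The uncorrected difference fell to 1.04 without ND replicate 2 and to 0.97 without MCDHFD replicate 2. Pielou evenness, the entropy over its largest possible value, was 0.895, 0.876 and 0.899 in ND and 0.905, 0.897 and 0.889 in MCDHFD and overlapped. The number of segments above 0 was 92, 97 and 90 in ND and 88, 96 and 95 in MCDHFD. Thinned to 2139 Ighv reads, the number in ND replicate 1, ND replicates 1 and 2 held 92.0 and 96.5 segments and MCDHFD replicates 1 to 3 held 85.7, 89.9 and 90.2, so more segments were seen per read in ND. Of the ranked segments, 16, 15 and 16 in ND and 16, 18 and 17 in MCDHFD made up 50% of the sum. No single segment exceeded 8.31% in any library, and the leading 5 held 26.3, 26.8 and 24.8% in ND and 24.3, 22.5 and 24.7% in MCDHFD. The effective number of Igkv segments was 56.5, 50.3 and 51.0 in ND and 52.8, 53.5 and 52.7 in MCDHFD, also overlapping.

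**Figure D3:**
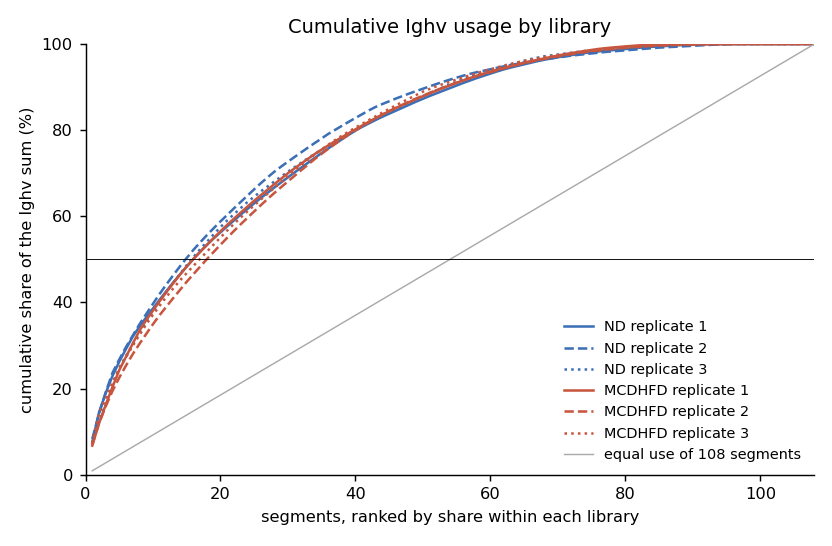
Cumulative share of the Ighv sum (vertical axis, percent) over segments ranked from the most to the least used within each library (horizontal axis). Lines are libraries, blue for ND and red for MCDHFD, and the grey line shows equal use. The 6 lines run close together and cross 50% at 15 to 18 segments.

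Ighv1-26 led in all ND libraries and in MCDHFD replicate 2, and Ighv3-6 led in MCDHFD replicates 1 and 3. The share of Ighv1-26 was 7.53, 8.31 and 7.39% in ND and 5.17, 6.91 and 6.87% in MCDHFD, without overlap. Its 95% Wilson interval, for counting error only, was 7.27 to 9.49% in ND replicate 2 and 4.69 to 5.69% in MCDHFD replicate 1, the extremes of the libraries with recovered reads. That of Ighv3-6 was 4.49, 5.06 and 4.79% in ND and 6.77, 5.03 and 7.34% in MCDHFD, so MCDHFD replicate 2 lay within the ND range. Ighv9-3 was second in ND replicate 1 (6.97%), and Ighv4-1 in ND replicate 2 (5.82%).

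Of the 77 tested segments, 44 kept a mean share within 1.5-fold between the diets, 11 gained over 2-fold and 5 lost over 2-fold. Over all 108 members, low ones included, 49 stayed within 1.5-fold, 16 gained and 23 lost over 2-fold. Ighv7-1 went from a mean share of 0.690% to 1.99%, Ighv5-6 from 0.698% to 1.90% and Ighv1-64 from 1.68% to 3.59%. Ighv4-1 went from 3.82% to 1.86% and Ighv1-55 from 3.38% to 1.74%. Both had higher mean levels in MCDHFD, but by less than the Ighv sum.

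Whole usage profiles were compared by the percentage of usage that would have to move from some segments to others to turn 1 library into another. This was 11 to 15.8% between MCDHFD libraries, 17.0 to 23.1% between ND libraries and 21.5 to 26.6% between diets. Distances between diets overlapped those within ND and exceeded those within MCDHFD. MCDHFD libraries held 7454 to 9180 Ighv reads, against 2139 and 2370 in ND replicates 1 and 2, and the part of read number in these distances was not tested.

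By family, the sum was higher in all MCDHFD than in all ND libraries in 13 of the 15 families, and families 12 and 13, with 1 low member each, overlapped. Family 1, the largest in the mouse, contributed 56 members. Its sum went from 1130.0 ± 77.9 to 4702 ± 784 normalized counts (SD, n = 3), and its share was 55.5, 51.5 and 54.7% in ND and 54.2, 57.8 and 55.6% in MCDHFD, with overlap. All 41 tested members of family 1 rose by limma, against 30.3% of all tested genes, with log2 fold changes from 0.88 to 3.58. The difference in its mean share, 1.94 percentage points, was 0.73 without ND replicate 2 and 0.98 without MCDHFD replicate 2.

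Family 3 had a ratio of sums of 5.22, and its share was 5.61, 6.41 and 6.87% in ND and 8.38, 6.94 and 9.29% in MCDHFD, which did not overlap by a small margin. Families 6 and 10, with Ighv6-3 (1.48) and Ighv10-1 (1.37) as their leading members, had ratios of 2.84 and 2.98, below that of the Ighv sum, and lower shares without overlap. Family 6 held 3.23, 4.14 and 3.95% in ND and 3.11, 2.69 and 2.34% in MCDHFD and family 10 2.62, 2.78 and 3.64% in ND and 2.35, 2.24 and 2.12% in MCDHFD. Family 8, led by Ighv8-8 (log2 fold change 2.86 with SE 0.36, limma adjusted p = 1.58e-04), had a ratio of 5.09, and family 5, with Ighv5-17 and Ighv5-6, of 4.47. Family 4, which is Ighv4-1 alone here, spread from 1.22 to 5.82% within ND, and family 9 from 2.97 to 8.13%, wider in both than the difference between the means of the diets.

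**Figure D4:**
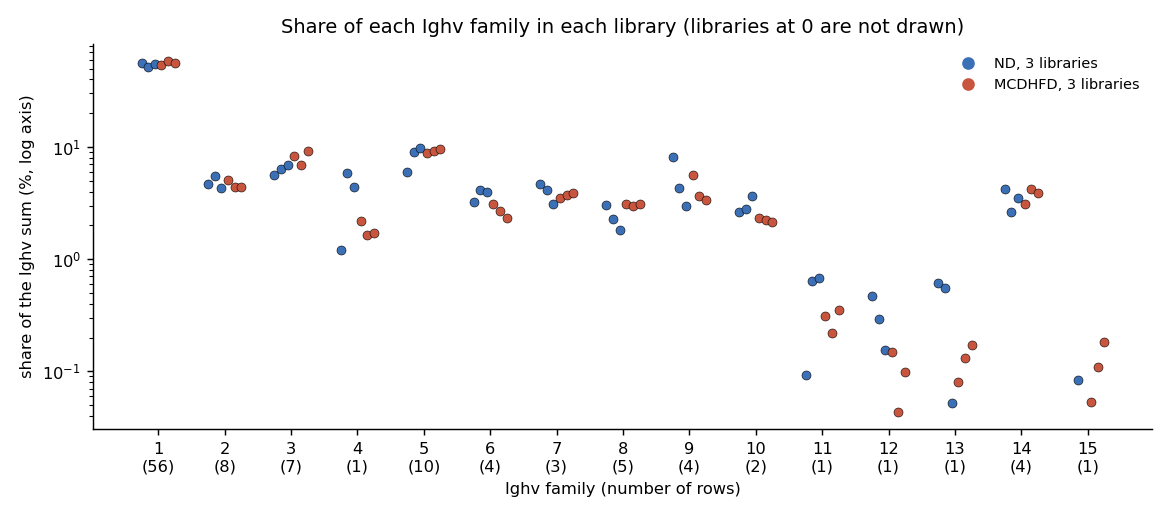
Share of each Ighv family in the Ighv sum (vertical axis, percent, log axis) by library, with ND in blue and MCDHFD in red and the number of rows below each family. Shares of 0 (family 15 in ND replicates 1 and 3) are not drawn. Family 1 holds 51.5 to 57.8% in every library, and the points of families 4 and 9 spread widely among ND libraries.

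The measured members span chr12:113578504-116000461, with the constant region and D segments at lower coordinates. V segments near the D segments are used early in B cell development, and distant ones need the locus to fold up. Split by position into blocks of 36 rows, a split chosen after seeing the data, the sum of the block nearest to the D segments had a ratio of MCDHFD to ND of 3.92, that of the middle block 3.85 and that of the most distant 4.21. Their shares of the Ighv sum overlapped between the diets, with 34.2 to 37.5% in ND and 33.1 to 36.4% in MCDHFD for the nearest block. By limma 23 of 28 tested members rose in the nearest block, 21 of 21 in the middle and 28 of 28 in the most distant. Of all tested genes 30.3% rose. All 5 segments that did not pass lie in the nearest block, a difference that was not tested.

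**Figure D5:**
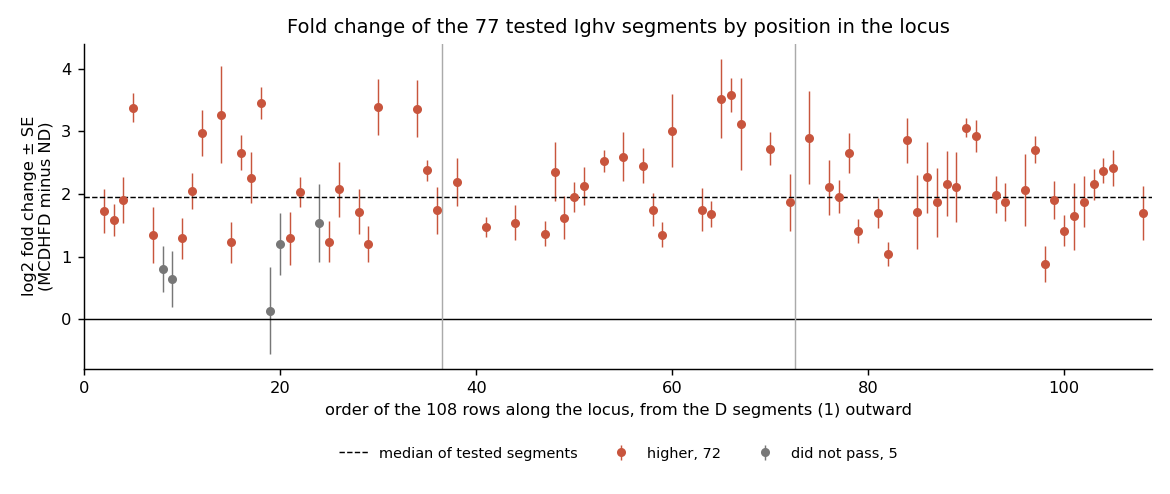
Log2 fold change of the 77 tested Ighv segments (vertical axis, MCDHFD minus ND, with SE) in their order along the locus from the D segments outward (horizontal axis). Grey lines separate blocks of 36 rows and the dashed line is the median, 1.96. Every point lies above 0, and the 5 grey points that did not pass lie in the first block.

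Genes that act in V segment joining and transcription were low or lower in MCDHFD at the deposited scaling. The J segments as annotated alone (Ighj, 4 rows) summed to 44.1, 46.7 and 46.5 in ND and 20.7, 18.7 and 21.3 in MCDHFD, lower in every MCDHFD library. How reads across a joined stretch were counted is not stated in the labels. Rag1, which cuts the segments, was at 0.979, 1.95 and 0 in ND and 0, 0 and 0 in MCDHFD. Of the 4 tested genes listed for recombination and octamer binding all fell by limma, against 28.1% of all tested genes. These were Dntt, the enzyme that adds bases at the joints (-0.89), and the octamer factor genes Pou2f1 (-0.21) and Pou2f2 (-0.45). The 4th was their B cell coactivator gene Pou2af1 (-1.12). With the CD8 T cell list held equal, where most of all tested genes were called higher, none fell and Pou2f1 and Pou2f2 rose. Without ND replicate 1, ND replicate 2 or MCDHFD replicate 2 only 2 of the 4 fell. Octamer sites are a known feature of V segment promoters. Of the 8 tested germinal centre genes, 2 rose and 3 fell by limma, against 30.3% and 28.1% of all tested genes. With the CD8 T cell list held equal 6 rose, Bcl6 among them, and 2 fell. In that setting most of all tested genes were called higher (median log2 fold change 1.08). At the deposited scaling Mki67, a marker of any dividing cell (1.11), and Mef2b (1.84) rose. The call of Mef2b was lost by edgeR and DESeq2 and without any 1 library other than ND replicate 1. Bcl6 (-0.79), Gcsam (-2.42) and Fcrl5 (-2.35) fell at the deposited scaling.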

How the data were processed

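The deposited table gives normalized counts per gene for 6 libraries, and its header names the values so. The submitters' processing notes name mm10. The authors' alignment, counting and scaling are steps not given in the sources used here. In all 6 libraries these deposited signal values were whole multiples of the smallest value above 0 (within 0.01). That value was taken as 1 read, and reads were recovered in 5 libraries (13188812 to 15482458 per library). ND replicate 3 was left out of the recovered reads although it met this check.

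Identifiers were matched to GENCODE M21 (19202 of 19323). Genes with a mean of at least 10 were tested with limma 3.58.1 (trend) in R 4.3.3 on log2(value + 1), which understates changes of low genes, with Benjamini-Hochberg adjustment at 0.05. edgeR 4.0.16 and DESeq2 1.42.0 on recovered reads of the 5 libraries (2 ND, 3 MCDHFD) were alternatives. Sums, shares and evenness are per library, with no test. The limma fit was tested on simulated data.

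The members and gene lists were chosen with earlier results of these data known. Segments were named by rule: the 10 highest means, the 5 highest and 5 lowest fold changes at a mean of at least 50, the leading segment of each family and library, and families 11 and 12; Ighv1-18, Ighv1-31, Ighv1-34, Ighv1-41, Ighv1-62-2, Ighv1-71, Ighv2-5, Ighv5-12, Ighv5-21, Ighv14-1, Ighv14-2, Ighv14-3 and those beside the filter were chosen after their values were seen.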

Additional observations from a re-analysis of the deposited data

How the results depend on the processing

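No alternative fit called an Ighv segment lower. With a mean of at least 50 required, 40 segments were tested and 39 rose; in the other fits 66 to 76 rose, and 66 of the 72 were called in all 16 alternatives that tested them. Under quantile scaling 68 rose, with 3552 genes higher and 4557 lower in all. Holding the CD8 T cell list equal raised the median of all genes by 1.08, called 11404 genes higher and 404 lower, and gave an Ighv median of 3.04 and a log2 ratio of sums of 3.09 (2.0 as reported). Of the segments named by the rule, Ighv4-1 and Ighv11-2 passed in some alternatives, and no other call changed. Of those named besides, Ighv2-5 passed with the replicate block (adjusted p = 0.0407, limma) and without ND replicate 2. Ighv5-12 passed without MCDHFD replicate 1, and both passed with the CD8 T cell list held equal. Ighv14-1 was fitted below 0 in 5 alternatives. Ighv5-9, just above the filter, lost its call under quantile scaling, without ND replicate 1 or 2 and without any 1 MCDHFD library. Leaving out 1 library at a time gave 66 to 72 segments higher and 0 to 0 lower, 3673 to 3984 genes higher and 3320 to 3689 lower, a log2 ratio of sums of 1.93 to 2.11, a log2 ratio per constant region sum of 0.90 to 1.01 and a difference in family 1 share of 0.73 to 2.78 percentage points. The difference in effective number of segments, 1.79 as reported, ranged from 0.97 to 2.24 without 1 library, was 0.69 without Ighv1-26, 3.54 over segments with a mean of at least 10 and 3.69 as the inverse Simpson index on recovered reads; the cause was not tested. Shares per exon length (1.70), segments merged at 97% identity (1.81) and the sum without family 1 (log2 ratio 1.93) were alternatives chosen after seeing the data.

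The libraries were not treated as paired by replicate number, and 3 libraries per diet cannot show whether they were paired. Deviations of same-numbered libraries correlated at 0.036, 0.062 and 0.0057 across genes. ND replicates 1 and 2 correlated best with the MCDHFD library of the same number, and ND replicate 3 with MCDHFD replicate 1 (0.020). With the replicate number as a block 74 Ighv segments rose and none fell, 4010 genes rose and 3697 fell. Depth limits the rare segments: 3 reads are 0.140% of the Ighv reads in ND replicate 1 and 0.0327% in MCDHFD replicate 2.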
